A study of Rattus norvegicus with 16 samples.

Results

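The genes described here encode, in the nucleus, the subunits of the mitochondrial respiratory chain. The set was a list of 54 rat genes fixed by name: 31 for complex I, 4 for complex II, 7 for complex III, 1 for cytochrome c and 11 for complex IV. A gene was found on the array where the accession of a probe matched the gene in a table of RefSeq genes. In this way 50 of the 54 genes had at least 1 probe, 60 probes in all, of 30367 probes on the array. No probe matched the complex I genes Ndufa3, Ndufa7, Ndufa8 and Ndufs6, which were not analysed here. One probe was matched for 41 genes and 2 probes for 8 genes, while Cox6b1 had 3.

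The samples were primary cultures of hippocampal neurons from Sprague-Dawley rats at embryonic day 18, grown in Neurobasal medium with B27. Before hydroxyurea was added, the medium was exchanged for one whose B27 lacked antioxidants. Hydroxyurea blocks ribonucleotide reductase, the enzyme that makes deoxynucleotides, and was given at a single dose, 5 µM. Treated cultures were collected after 2, 6, 12 and 24 h. Together with the untreated cultures this made 5 groups of 3 samples, 15 samples in all. All groups came from the same kind of culture, with no genetic change, and no label gives the time that untreated cultures were kept after the exchange of medium, so no treated group is known to have controls of matched age. The extraction protocol names hippocampal tissue where the other labels name cultured neurons. Nothing in the labels says that the 3 samples of a group were separate cultures, so that each p-value rests on a spread among samples that may be technical alone.

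The respiratory chain passes electrons from NADH and succinate to oxygen and pumps protons across the inner mitochondrial membrane, and the proton gradient drives ATP synthesis. Complex I oxidises NADH, complex II oxidises succinate, both hand electrons through ubiquinone to complex III, and cytochrome c carries them on to complex IV, which reduces oxygen to water. Neurons draw most of the ATP for ion pumping and synaptic transmission from this chain. Most subunits are encoded in the nucleus, and transcription factors such as NRF1, the ETS factor GABP and YY1 are known to act on many of these genes. A value below is a normalised log2 signal, the log2 of the background-subtracted spot intensity minus the 75th percentile of its array, and a difference of 1 between groups is a doubling. Levels of different genes come from different probes and are not compared with each other.

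Letters of motifs linked to these factors were looked for in the promoter windows of RefSeq genes, from 250 bases before to 50 after the start, on both strands, with build GRCr8. Whether such letters bear on how the genes varied between samples was not tested. Of the 54 genes 48 had a window; Cyc1, Ndufa8, Uqcrb, Ndufb9, Cox6a1 and Cox6c had none in the table used. The NRF1 letters GCGCATGCG stood in 3 of the 48 windows (6.25%), against 1.52% of all 33469 windows and 1.93% of the windows of protein-coding genes. The YY1 letters AAGATGGCG stood in 8 windows (16.7%, against 1.73% of all and 2.07% of protein-coding windows), and the ETS letters CCGGAAGT in 6 (12.5%, against 3.81% and 4.77%). The share was closer to the background for the SP1 letters GGGCGG, with 37.5% against 33.1% of all and 41.8% of protein-coding windows, and for the hypoxia response core ACGTG, with 27.1% against 19.3% and 19.8%. The median GC content of the windows was 57.7%, and it was 55% over protein-coding windows. A match is a description of letters and no evidence that a factor binds.

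The NRF1 letters are in capitals in the following stretches, each on the strand of its gene, at chr4:80984909-80984933 (minus strand) for Cycs, chr9:1637515-1637539 (plus) for Ndufa11 and chr8:118468176-118468200 (plus) for Uqcrc1. In Ndufa11 the letters overlapped themselves on both strands.
Cycs: tgctagccCGCATGCGCgcgcacct
Ndufa11: gtgcgcatGCGCATGCGcacaggcc
Uqcrc1: tccaccctGCGCATGCGtagcgcgg
Counted from the start, the first capital lay at position -158 in Cycs, -91 in Ndufa11 and -39 in Uqcrc1.

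The YY1 letters, all on the gene's own strand, lay at the start or just after it, with the first capital between position -1 (Uqcrc1) and position 26 (Ndufa2) from the start. They hold an ATG, and whether that is the start codon was not examined. Shown are Ndufs7 at chr7:10110478-10110502, Ndufa6 at chr7:115750286-115750310, Ndufa9 at chr4:161374144-161374168, Ndufb8 at chr1:253362899-253362923 and Ndufs4 at chr2:47794894-47794918, all on the minus strand, and Uqcrc1 at chr8:118468214-118468238 on the plus strand.
Ndufs7: ccgaggccAAGATGGCGgcgctggc
Ndufa6: tccttagcAAGATGGCGgccgcggc
Ndufa9: tgtgggagAAGATGGCGgccgccgt
Ndufb8: agaaggtgAAGATGGCGgcgtcccg
Ndufs4: cccacaggAAGATGGCGgcggtctc
Uqcrc1: gaagttagAAGATGGCGgcgtccgc
Ndufa2 and Ndufs6 held the same letters.

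The ETS letters, in either orientation, stood between positions -84 and -14 from the start in Uqcrh (chr5:134790951-134790974, minus), Uqcrq (chr10:38089985-38090008, minus), Cox5b (chr9:46417815-46417838, plus), Ndufb7 (chr19:41477292-41477315, minus) and at 2 places in Cox8a, of which the nearer to the start is at chr1:213833628-213833651 (minus). In Ndufs1 they stood at position -200.
Uqcrh: tatgccgcACTTCCGGccaggtcg
Uqcrq: cgctcctcCCGGAAGTgacgtgca
Cox5b: gtctgttcCCGGAAGTgcatctgc
Ndufb7: tagatgacCCGGAAGTcactgaag
Cox8a: gcgccggaACTTCCGGctattgcg
Only Uqcrc1 held the letters of 2 of these 3 factors, NRF1 and YY1, which did not overlap.

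Cycs has long been a model gene for NRF1, and its 250 bases before the start, chr4:80984768-80985017 on the minus strand of GRCr8, are given whole with the NRF1 letters in capitals.
Cycs promoter: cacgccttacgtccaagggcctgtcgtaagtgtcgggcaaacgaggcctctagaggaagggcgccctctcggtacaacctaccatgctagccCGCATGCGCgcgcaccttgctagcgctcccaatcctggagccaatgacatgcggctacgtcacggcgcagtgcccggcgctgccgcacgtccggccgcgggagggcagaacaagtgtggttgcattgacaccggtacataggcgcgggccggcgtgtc

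All 50 genes gave a signal in these cultures at every time. Their probes were well above background in all 15 samples, except that of Ndufs8, which was so in 14. Most probes of the array met this call, between 64.6% and 70.4% of all probes on each array. On 2 arrays replicate spots differed more than elsewhere: the median coefficient of variation between spots of the same probe was 23.1% on the array of 12 h replicate 3 and 15.5% on the first of the 2 arrays of untreated replicate 1, against 3.38% to 7.34% on the other 14 arrays. Untreated replicate 1 was hybridised on both slides of the study and counts as 1 sample, the mean of its 2 arrays. No spot was saturated. Markers of neurons were well above background in every sample for 11 of 11 genes with a probe, including Map2, Tubb3, Stmn2 and Slc17a7. So were those of astrocytes (8 of 8, including Gfap and Aqp4), radial glia (6 of 6), the oligodendrocyte lineage (8 of 9), and fibroblasts and pericytes (6 of 7). The RNA was thus read as that of a mixture of cells, by a call that most probes met. In a mixture, fewer cells of a type and less RNA per cell cannot be told apart. Of microglial markers 5 of 9 were well above background in every sample and Itgam and Ptprc in none; of endothelial markers 3 of 6 were, and Cldn5, Tek and Flt1 were in none.

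No respiratory chain gene passed the test at any time of hydroxyurea. Each time, the mean of the 4 times and the differences among the 4 times were tested in 1 limma fit over 18173 features, and the adjusted p of the 50 genes ranged from 0.996 to 1. The 18173 features gave 0 calls as well, a background of 0% in each of the 6 comparisons. An unadjusted p under 0.05 was reached by 1 of the 50 genes, the complex I subunit Ndufa10, at 2 h and for the 4 times averaged, where 0.682% and 1.42% of all features reached it with a higher mean. The corresponding shares for a lower mean were 0.512% at 2 h and 0.264% for the average, with 0 of the 50 genes. At 6 h (0.424% higher, 0.314% lower), 12 h (1.34% higher, 0.979% lower), 24 h (0.556% higher, 0.303% lower) and among the 4 times (1.09%), 0 of the 50 genes reached it.

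The differences from untreated were small for most genes. Their median was 0.052 at 2 h, 0.0245 at 6 h, 0.0558 at 12 h and 0.0234 at 24 h, where the median over all features was 0.0019, -0.0047, 0.0219 and 0.013. A higher treated than untreated mean was seen for 38, 32, 32 and 35 of the 50 genes, where 50.6%, 47.9%, 55.5% and 54.7% of all features were higher. These counts depended on the scaling: they were 25, 27, 28 and 18 of 50 after quantile normalization and 47, 43, 36 and 42 of 50 with the deposited scores. The median over all features was -0.0148, -0.0141, 0.0069 and -0.0125 in the former and -0.0245, -0.028, -0.007 and -0.0105 in the latter. The share of all features that were higher was not computed there. The genes vary together between samples (below), so the counts of higher genes are not counts of independent genes. All 4 times were higher than untreated for 17 genes and lower for 2, Ndufb10 and Ndufs3, and the sign was mixed for the other 31. The sign of Ndufb10 depended on 1 array of untreated replicate 1 (below). So did, at some times, the signs of Ndufs8 and Cox6b1, which are among the 17 higher genes. The error of these differences was a median SE of 0.13 on the log2 scale. The 95% interval of the difference lay within 0.5 of 0, a 1.41-fold change, for 46 of the 50 genes at 2 h, at 6 h and at 24 h, for 37 at 12 h and for 47 in the mean of the 4 times. Beyond that bound in all 5 of these comparisons were the intervals of Ndufs8, Ndufa10 and Cox6b1.

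**Figure D1:**
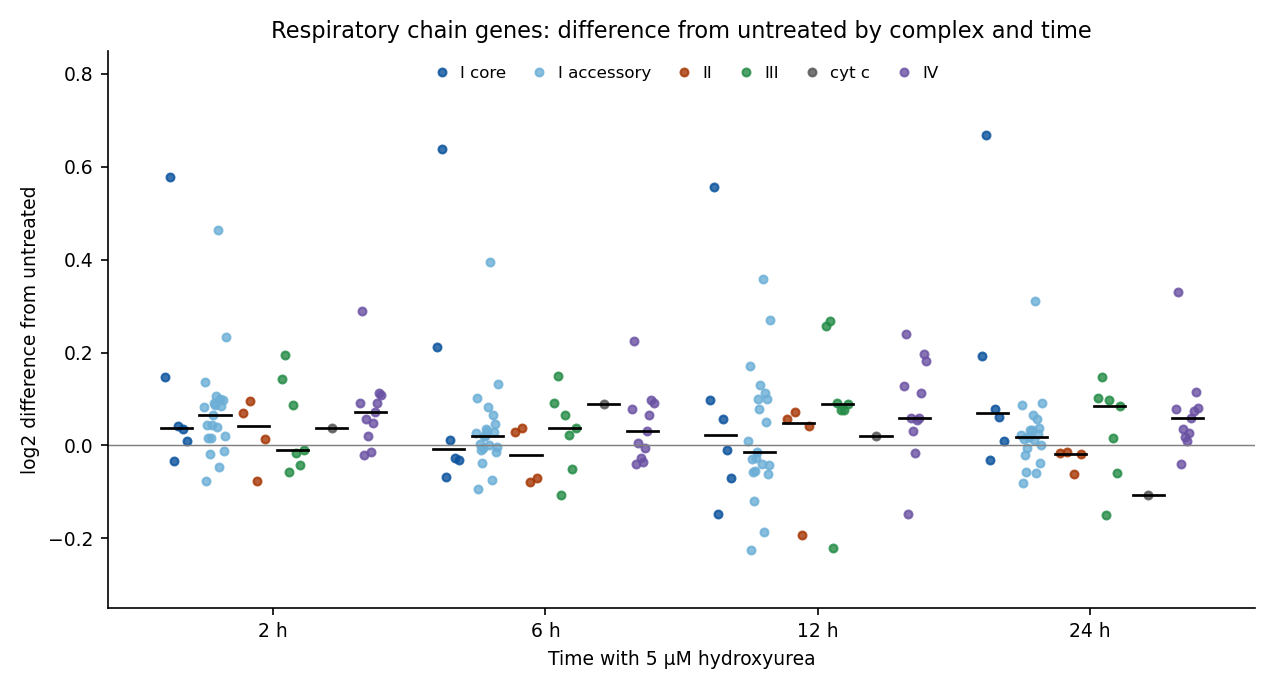
Difference of the group mean at 2, 6, 12 and 24 h from the untreated mean on the log2 scale, 1 point for each of 50 genes, coloured by complex with the core and accessory subunits of complex I apart; black lines are medians. Most points lie near 0 at each time, and the highest point at every time is Ndufs8, between 0.56 and 0.67.

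Complex I, the entry point for electrons from NADH, had 27 measured subunits. Their median difference was 0.0433 at 2 h, 0.02 at 6 h, -0.0097 at 12 h and 0.0219 at 24 h, with 22, 17, 13 and 20 of 27 higher than untreated. Among the 6 core subunits, most of which carry the flavin or iron-sulphur clusters, the medians were 0.0376, -0.0085, 0.0231 and 0.0694. The 21 accessory subunits had medians of 0.0663, 0.0212, -0.0133 and 0.0174. The median difference of complex I thus stayed within 0.05 of the untreated level at each time.

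Ndufv1, the flavoprotein that oxidises NADH, stood at 3.78, 3.79 and 4.05 in the untreated samples, at 3.74, 3.88 and 4.11 at 2 h, 3.84, 3.85 and 3.97 at 6 h, 3.84, 3.88 and 4.08 at 12 h and 3.89, 4.05 and 3.86 at 24 h. The groups overlapped at every time, and the difference of the mean of the 4 times was 0.04 (SE 0.10). Ndufv2, its partner with an iron-sulphur cluster, differed by 0.04, -0.03, 0.10 and 0.01 in order of time (SE 0.15), and Ndufs3, a core subunit of the arm that leads to ubiquinone, by -0.03, -0.03, -0.07 and -0.03 (SE 0.11). Ndufs7, which carries the last cluster before ubiquinone, differed by 0.01, -0.07, -0.15 and 0.08 (SE 0.17). These 4 core genes stayed within 0.15 of untreated.

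Ndufs8, another iron-sulphur core subunit, had the largest difference of the 50 genes at each time, 0.58 at 2 h, 0.64 at 6 h, 0.56 at 12 h and 0.67 at 24 h (SE 0.39, unadjusted p between 0.112 and 0.180). Its untreated values were -0.79, 1.18 and 1.36, and its 12 treated values lay between 1.00 and 1.47. Only untreated replicate 1 was low, and the other 2 untreated samples lay inside the treated range. The 2 arrays of this sample read -2.66 and 1.09, the first not well above background. With the second array alone the differences were -0.05, 0.01, -0.07 and 0.04, and without the sample they were -0.11, -0.05, -0.13 and -0.02.

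Ndufa10, an accessory subunit of the membrane arm, was the gene with the smallest unadjusted p at 2 h (0.0335) and for the 4 times averaged (0.0278). Untreated samples read 1.78, 2.63 and 2.37, and the treated samples 2.64, 2.72 and 2.82 at 2 h, 2.57, 2.58 and 2.82 at 6 h, 2.58, 2.51 and 2.77 at 12 h and 2.68, 2.23 and 2.81 at 24 h. The 3 values at 2 h lay above the 3 untreated ones, and the other times overlapped with them. The differences were 0.46, 0.39, 0.36 and 0.31 in order of time (SE 0.20), and 0.38 (SE 0.16) for the mean of the 4 times, with adjusted p of 1, 1, 0.996, 1 and 1 in limma. The 2 arrays of untreated replicate 1 read 1.00 and 2.57. With the second array alone the differences were 0.20, 0.13, 0.10 and 0.05, and without the sample 0.22, 0.15, 0.12 and 0.07.

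The first array of untreated replicate 1 stood apart from the second, an array of the same sample, for a few genes of the chain. The 2 arrays differed by over 0.5 for 6 of the 50 genes, Ndufs8 (-3.75), Cox6b1 (-1.78), Ndufa10 (-1.58), Ndufs1 (-1.19), Uqcrb (-0.73) and Ndufb10 (0.76), where values are the first array minus the second. Among features well above background on both arrays, that much was seen for 5 of 49 genes of the chain (10.2%, Ndufs8 left out) and for 7.66% of all 20069 probes, and the median absolute difference was 0.1023 for these genes and 0.1106 for those probes. The 3 genes whose intervals reached beyond 0.5 in every comparison are among these 6, and Ndufb10 is 1 of the 2 genes that were lower at all 4 times.

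Ndufs1, the largest core subunit, was at 1.07, 1.55 and 1.56 in untreated samples, and treated samples ranged from 1.13 in 12 h replicate 3 to 1.72 in 6 h replicate 3. Its differences of 0.15, 0.21, -0.01 and 0.19 (SE 0.14) became -0.05, 0.01, -0.21 and -0.01 with the second array of untreated replicate 1 alone. Ndufb10, a subunit of the membrane arm, was at 4.27, 4.10 and 4.10 in untreated samples and differed by -0.08, -0.09, -0.06 and -0.06 (SE 0.12). With the second array of untreated replicate 1 alone all 4 differences turned positive, to 0.05, 0.03, 0.07 and 0.07, and without the sample they were -0.02, -0.04, -0.0059 and -0.0017. Its second probe gave 0.09, -0.04, -0.17 and 0.02, and the 2 probes did not vary together between samples (r = -0.07 across 15 samples, as deviations from group means).

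At 12 h, 14 of the 27 complex I genes had a lower mean than untreated, and 0 passed. Ndufab1 and Ndufa12, with the smallest unadjusted p among them, were lowest in 12 h replicate 3. Ndufab1, the acyl carrier protein that also serves lipoic acid synthesis, was at 3.11, 3.22 and 3.21 in untreated samples and at 3.02, 3.16 and 2.68 at 12 h, a difference of -0.22 (SE 0.12, unadjusted p = 0.093). Without 12 h replicate 3 it was -0.09. The second probe of Ndufab1, with an untreated mean of -4.27 against 3.18 for the probe tested, gave -0.0092 at 12 h. Ndufa12, an accessory subunit of the matrix arm, was at 3.75, 3.85 and 3.84 in untreated samples and at 3.72, 3.70 and 3.44 at 12 h, so that all 3 values lay below the untreated ones, with a difference of -0.19 (SE 0.11) that was -0.10 without that sample. It was the 1 gene of 50 that lay wholly below untreated at 12 h, where 2.04% of all features did. Ndufs4, an accessory subunit of the matrix arm, differed by at most 0.07 at any time, while its second probe gave -0.24, 0.01, -0.11 and -0.12. The untreated mean of that probe was -2.13, against 2.08 for the probe tested. Ndufb5 and Ndufb6, of the membrane arm, were among the 3 genes with the smallest spread, a residual SD within groups of 0.0885 and 0.0868. Their differences stayed between -0.06 and 0.03. Ndufb9 differed by 0.04, -0.01, -0.01 and -0.08 (SE 0.12).

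Complex II, succinate dehydrogenase, belongs to both the respiratory chain and the tricarboxylic acid cycle, and all of its 4 subunits were measured. Their median difference was 0.0416 at 2 h, -0.0214 at 6 h, 0.0484 at 12 h and -0.0178 at 24 h. Sdha, the flavoprotein that oxidises succinate, was at 2.20, 2.15 and 2.16 in the untreated samples, at 2.09, 2.12 and 2.07 at 2 h and at 2.03, 2.15 and 2.12 at 6 h. At both times all 3 treated values lay below the untreated ones, which 3% of all features did at 2 h and 2.38% at 6 h, and it was the 1 gene of 50 to do so. The differences were -0.08 and -0.07 (SE 0.12) and did not pass. At 12 h its values were 1.97, 2.16 and 2.51, and at 24 h 2.19, 2.22 and 2.05, on both sides of the untreated samples.

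Sdhb, the iron-sulphur subunit, differed by 0.01, -0.08, 0.07 and -0.01 in order of time (SE 0.11). The membrane anchors Sdhc and Sdhd differed by 0.10, 0.04, -0.19 and -0.02 (SE 0.14) and by 0.07, 0.03, 0.06 and -0.06 (SE 0.12). The low value of Sdhc at 12 h rested on replicate 3, which read 1.81 where replicates 1 and 2 read 2.33 and 2.28. The same sample had the highest value of the 15 for Sdha, Sdhb (3.01) and Sdhd (3.32). The 4 subunits thus did not move together in it.

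Complex III, which passes electrons from ubiquinol to cytochrome c, had all 7 listed subunits measured, and their median difference was -0.0097 at 2 h, 0.0368 at 6 h, 0.0892 at 12 h and 0.0843 at 24 h. Cyc1, cytochrome c1, was at 4.53, 4.52 and 4.49 in the untreated samples, a narrow range. At 2 h it read 4.53, 4.69 and 4.76, at 6 h 4.38, 4.59 and 4.78, at 12 h 4.57, 4.59 and 4.61, and at 24 h 4.65, 4.39 and 4.80. All 3 values were above the untreated ones at 2 h, by less than 0.01 for replicate 1, and at 12 h. The differences were 0.14, 0.07, 0.08 and 0.10 (SE 0.13). Uqcrb, a small subunit near the ubiquinone site, was at 4.26, 4.52 and 4.47 in untreated samples and at 4.52, 4.68 and 4.63 at 2 h, above them by less than 0.01 for replicate 1, with a difference of 0.20 (SE 0.14).

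Genes whose 3 treated values lay above all untreated ones were at 2 h Cyc1, Uqcrb and Ndufa10 (3 of 50, where 3.35% of all features did) and at 12 h Cyc1 and Uqcrh, the hinge protein (2 of 50, against 3.02%). None of the 50 did so at 6 h (1.44% of all features) or at 24 h (1.37%), and none lay wholly below at 24 h (1.57%). These shares are near the background of all features at 2 h and 12 h. For Uqcrb the differences at 6, 12 and 24 h were 0.15, 0.26 and 0.15, and all 4 were smaller with the second array of untreated replicate 1 alone (0.07, 0.03, 0.14 and 0.03 in order of time). Its second probe, with an untreated mean of -2.25 against 4.42 for the probe tested, gave -0.0049, 0.0012, -0.02 and -0.09. The signs of its 2 probes for the mean of the 4 times were therefore opposite, 0.19 and -0.03.

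Uqcrq, a small subunit, had the smallest unadjusted p among the 4 times of the 50 genes (0.114, adjusted p = 1 in limma). Untreated samples read -2.51, -2.33 and -2.44, the 12 h samples -2.08, -2.005 and -2.40, and those at 2, 6 and 24 h between -2.75 and -2.18. The difference at 12 h was 0.27 (SE 0.15), and at the other times it was -0.04, -0.05 and -0.06. At 12 h 2 of the 3 values lay above the untreated range. Uqcrfs1, the Rieske iron-sulphur protein, differed by -0.01, 0.02, 0.09 and 0.02 (SE 0.12), and the core protein Uqcrc2 by -0.02, 0.09, 0.08 and -0.15 (SE 0.13). Uqcrc1, the other core protein, ranged from 2.00 in 12 h replicate 3 to 2.93 in 24 h replicate 2 and differed by -0.06, -0.11, -0.22 and 0.08 (SE 0.17).

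Cycs, cytochrome c itself, also known for its release from mitochondria in apoptosis, was at 3.77, 3.70 and 3.49 in untreated samples. It read 3.79, 3.77 and 3.51 at 2 h, 3.48, 3.84 and 3.89 at 6 h, 3.65, 3.59 and 3.77 at 12 h and 3.84, 3.09 and 3.70 at 24 h. All groups overlapped, and 24 h replicate 2 was the lowest sample. The differences were 0.04, 0.09, 0.02 and -0.11 (SE 0.18), and its second probe gave -0.10, 0.08, 0.17 and -0.10.

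**Figure D2:**
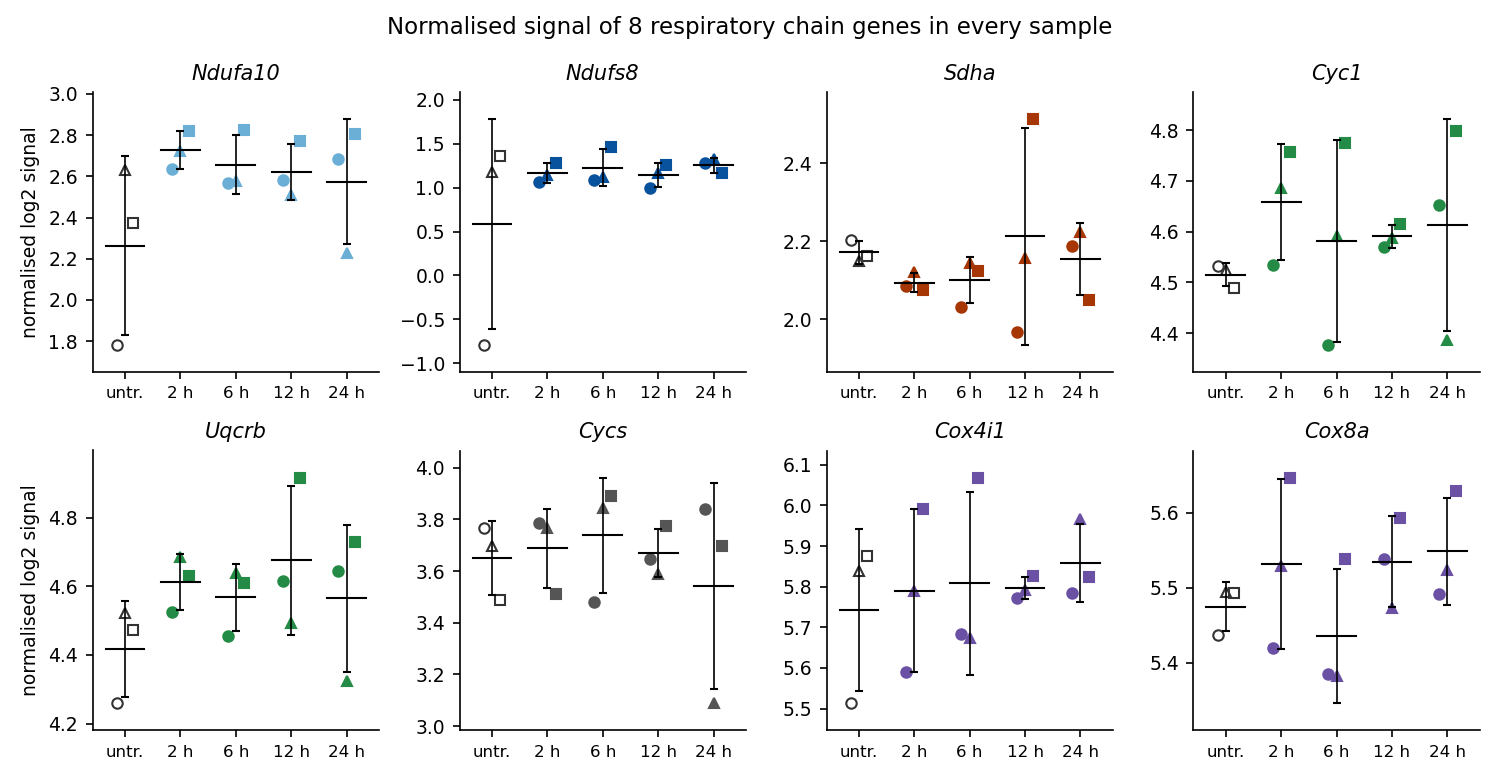
Normalised log2 signal of 8 respiratory chain genes in each of the 15 samples, by group; circles, triangles and squares are replicates 1, 2 and 3, open symbols are untreated, horizontal lines are group means and bars are 1 SD of 3 samples, and each panel has its own axis that does not start at 0. The mean of the untreated group is pulled down by 1 sample in Ndufa10 and Ndufs8, and treated and untreated values overlap at 24 h in all 8 panels.

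Complex IV, cytochrome c oxidase, had 11 measured genes, among them Ndufa4, which was named for complex I and is now known as a complex IV subunit. Their median difference was 0.0716 at 2 h, 0.0318 at 6 h, 0.0599 at 12 h and 0.0589 at 24 h, with 9, 7, 9 and 10 of 11 higher than untreated, and 0 passed. Cox4i1, a subunit through which the complex senses ATP, was at 5.51, 5.84 and 5.88 in untreated samples, at 5.59, 5.79 and 5.99 at 2 h, 5.68, 5.67 and 6.07 at 6 h, 5.77, 5.79 and 5.83 at 12 h and 5.78, 5.97 and 5.82 at 24 h. The groups overlapped throughout, with differences of 0.05, 0.07, 0.05 and 0.12 (SE 0.14). The lowest value of the 15 samples was that of untreated replicate 1, whose 2 arrays read 5.46 and 5.56. The matrix-side subunits Cox5a and Cox5b differed by 0.09, 0.08, -0.15 and 0.06 (SE 0.16) and by 0.02, -0.03, -0.02 and 0.08 (SE 0.14). The value of Cox5a at 12 h rested on replicate 3, at 3.85 where replicates 1 and 2 were at 4.55 and 4.46.

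Cox8a, a small membrane subunit, had the smallest spread of the 50 genes, a residual SD of 0.0782. It read 5.44, 5.49 and 5.49 in untreated samples and between 5.38 and 5.65 in treated ones, with differences of 0.06, -0.04, 0.06 and 0.07 (SE 0.10). The 95% interval of its mean difference ran from -0.13 to 0.20. Cox6a1, the form of subunit VIa found outside muscle, differed by 0.11, 0.09, 0.18 and 0.08 (SE 0.16), and Ndufa4 by 0.09, 0.03, 0.13 and 0.01 (SE 0.18).

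Cox6b1, which joins the monomers of the complex IV dimer, had the largest differences of complex IV, 0.29, 0.22, 0.24 and 0.33 (SE 0.20). Untreated samples read 2.94, 3.88 and 3.93, and treated samples from 3.70 (12 h replicate 1) to 4.004 (12 h replicate 3). Untreated replicate 1 alone was low, with 2.05 on its first and 3.83 on its second array. With the second array alone the differences were -0.01, -0.07, -0.06 and 0.03. The other 2 probes of Cox6b1, with all arrays, gave 0.03 and 0.02 for the mean of the 4 times, against 0.27 for the probe tested. Their untreated means were 2.83 and -1.30, against 3.58 for the probe tested.

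**Figure D3:**
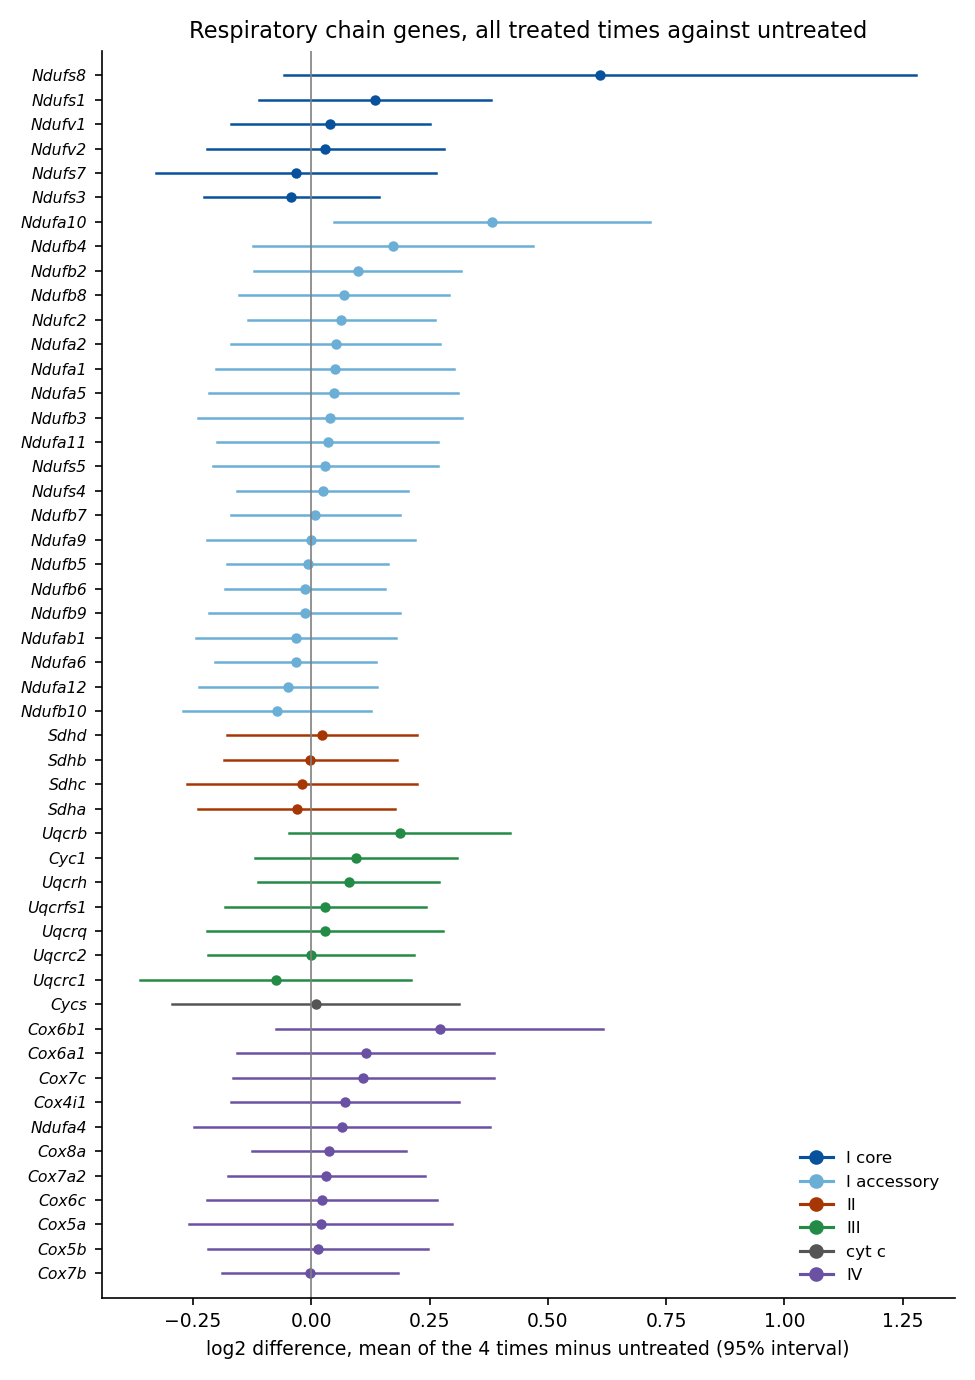
Difference of the mean of the 4 treated times from untreated for each of 50 genes on the log2 scale (point) with its 95% interval (line), grouped and coloured by complex. The interval of 1 gene, Ndufa10, leaves out 0, from 0.05 to 0.72, and the interval of Ndufs8 is the widest.

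Within groups, the genes of the chain varied together from sample to sample. As deviations from group means over the 15 samples, the median pairwise correlation was 0.339 over 1225 pairs, and 73.2% of pairs were above 0. The correlation of a gene with the median of the other 49 was 0.637 at the median and over 0.5 for 31 of 50 genes, with the highest values for Ndufb8 (0.959), Cox6a1 (0.950) and Cox7a2 (0.914). For the 18071 other features it was -0.0043 at the median. The pattern was not particular to the 50 genes. As a deviation from the untreated mean, the median of the ATP synthase genes was 0.1901, 0.1455 and 0.2128 in replicate 3 at 2, 6 and 12 h. In 6 h replicate 1 it was -0.0856. Further chain subunits outside the list stood at 0.2176, 0.1421, 0.0332 and -0.107 in these 4 samples. All points share arrays, and thus any effect of an array's depth or scaling, so these values are given as a description. Below 0 were 7 genes: Uqcrc1 (-0.50), Uqcrq (-0.41), Ndufb7 (-0.27), Ndufs1 (-0.12), Sdhc (-0.10), Cox5a (-0.07) and Ndufab1 (-0.01). In all 7, replicate 3 had the lowest value of the 12 h group. The median pairwise correlation within a complex was 0.2995 for complex I, 0.2546 for II, 0.2845 for III and 0.3817 for IV.

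The samples in which the chain stood high or low can be named. Relative to its own group mean, the median of the 50 genes was highest in 12 h replicate 3 (0.128, with 38 of 50 genes above), 6 h replicate 3 (0.125, 47 of 50) and 2 h replicate 3 (0.0943, 41 of 50). It was lowest in 6 h replicate 1 (-0.109, 2 of 50), 2 h replicate 1 (-0.0898, 9 of 50) and 24 h replicate 2 (-0.0884, 16 of 50). The 3 high samples were all on slide 2 and the first 2 low ones on slide 1, while 24 h replicate 2 was on slide 2. The complexes mostly moved together in these samples, with complex I at 0.125, II at 0.0731, III at 0.12 and IV at 0.131 in 6 h replicate 3. In 12 h replicate 3, whose replicate spots differed by 23.1%, they were at 0.126, 0.210, 0.0816 and 0.180. There the median of the 11 neuron markers stood 0.37 above the untreated mean and that of the 8 astrocyte markers 0.29, the highest values of the 15 samples for both. By time, the neuron markers had medians of -0.0419, -0.0775, 0.1217 and -0.0836 with 3, 1, 8 and 2 of 11 higher, and the astrocyte markers 0.0584, 0.09, 0.1853 and 0.0732 with 5, 6, 8 and 6 of 8 higher. The part of these markers in the result was not tested. The median of the 50 genes per sample, as a deviation from the untreated mean, was 0.057 ± 0.0755 at 2 h, 0.0351 ± 0.125 at 6 h, 0.0526 ± 0.1171 at 12 h and 0.0264 ± 0.0658 at 24 h, and -0.0052 ± 0.0255 in untreated samples (mean ± SD, n = 3). At each time the SD was larger than the gap to the untreated mean.

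**Figure D4:**
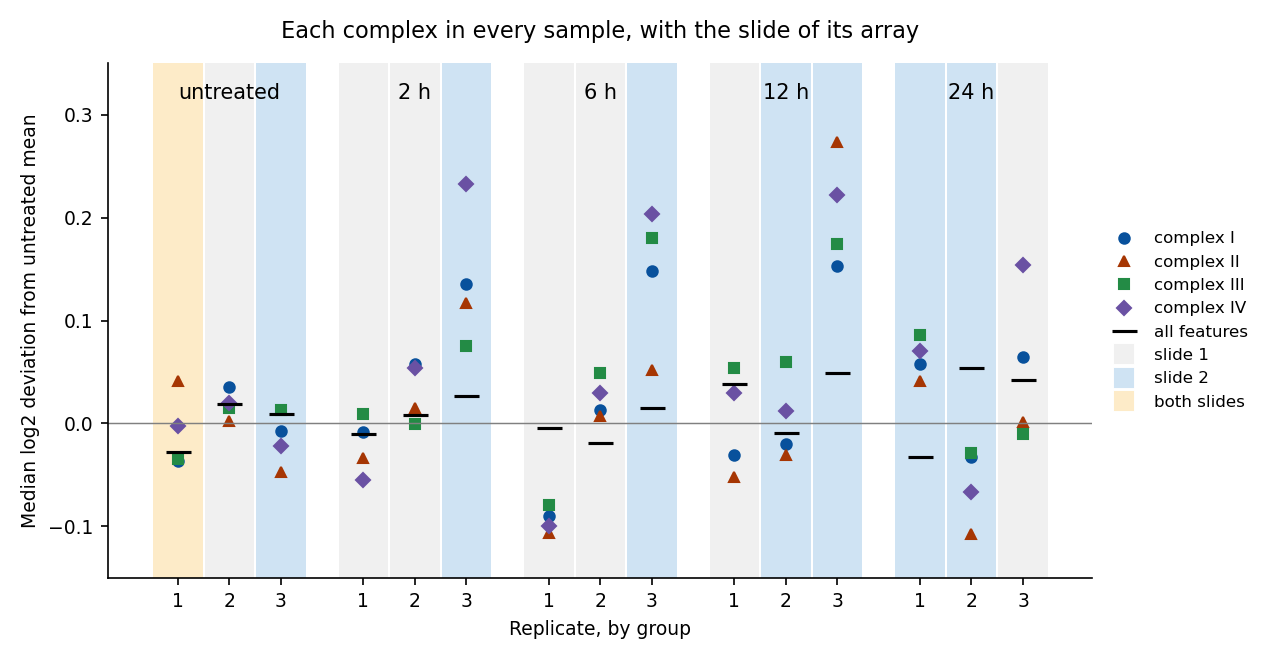
Median deviation of the genes of each complex from the untreated mean on the log2 scale in each of the 15 samples, with the median of all features as a black bar; the shading gives the slide of the array, and untreated replicate 1 was on both. Replicate 3 at 2, 6 and 12 h, on slide 2, is high in all 4 complexes, while 6 h replicate 1, on slide 1, is low in all 4.

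The median difference was also computed within each slide, which changes both the slide and the samples compared. On slide 1 the untreated samples were replicate 2 and the first array of replicate 1, the array whose replicate spots differed by 15.5%. On slide 2 they were replicate 3 and the second array of replicate 1. Within slide 1, against the untreated samples of that slide, the median of the 50 genes was -0.008 at 2 h, -0.0631 at 6 h, -0.0796 at 12 h and 0.0445 at 24 h. Within slide 2 it was 0.1659, 0.185, 0.0984 and 0.0342. With the slide as a block it was 0.0743, 0.0344, 0.045 and 0.0178, and no sign turned. Within a slide, a time has 1 or 2 samples, and slide 2 holds replicate 3 of the 2, 6 and 12 h groups, so slide and sample cannot be told apart there. Without 12 h replicate 3 the median at 12 h was -0.0318. The sign of the median was opposite in the slides at 2, 6 and 12 h. After quantile normalization the median of the 50 genes was -0.0015 at 2 h and -0.0143 at 24 h, where that of all features was -0.0148 and -0.0125. With the deposited scores, multiplied by the mean SD of the log2 signals of an array to bring them near the log2 scale, it was 0.1243 at 2 h and 0.0805 at 24 h, where that of all features was -0.0245 and -0.0105.

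**Figure D5:**
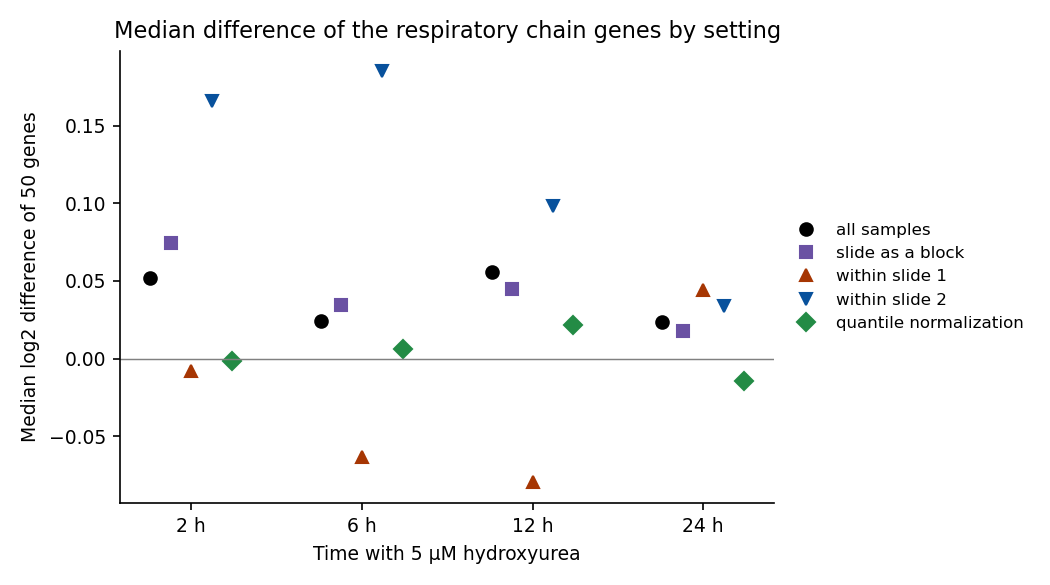
Median log2 difference from untreated of the 50 respiratory chain genes at each time, over all samples, with the slide as a block, within each slide and after quantile normalization. The points within slide 1 lie below 0 at 2, 6 and 12 h and those within slide 2 above 0 at every time. The first array of untreated replicate 1 is among the untreated arrays of slide 1.

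The median residual SD of these genes within groups was 0.149 (0.0782 to 0.549), against 0.202 over all 18173 features. The 2 sets were not matched for signal or for spots per probe, and whether the gap is a property of the chain was not tested. Some of these genes had probes with 10 spots, such as Ndufa6, and others with 1 or 2, such as Ndufa9 and Ndufa1. The largest were those of Ndufs8 (0.549), Cox6b1 (0.267) and Ndufa10 (0.256), the 3 genes with the largest gap between the 2 arrays of untreated replicate 1.

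Other genes of mitochondrial energy metabolism also gave 0 passing genes at every time. Of 9 further chain subunits 7 were tested, with medians between -0.0382 and 0.0656 over the 4 times; the smallest unadjusted p were those of Cox7a2l, a factor in supercomplex assembly (0.13 for the mean of the 4 times, SE 0.10), and Uqcr11 (0.06, SE 0.11). Of 16 genes of ATP synthase, the enzyme that uses the gradient, 15 were tested, with medians between 0.0081 and 0.0555; Atp5f1a, its alpha subunit, differed by 0.09 (SE 0.08) and Atp5f1e by 0.07 (SE 0.10). Isoforms of chain subunits used in other tissues had 4 of 8 genes tested, with medians between -0.1131 and 0.1347, and Cox4i2, the form linked to low oxygen, differed by 0.10 (SE 0.13) and Cox6a2, the muscle form, by -0.12 (SE 0.35). These lists thus showed no call either.

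Among assembly factors, which build the complexes, 35 of 43 were tested, with medians between 0.0011 and 0.0298. Nubpl, which delivers iron-sulphur clusters to complex I, differed by 0.37 (SE 0.18) for the mean of the 4 times, with untreated values of -1.83, -0.67 and -0.98 and untreated replicate 1 again the low sample. Coa3, an assembly factor of complex IV, differed by -0.17 (SE 0.11), and its lowest value, 1.23, was in 12 h replicate 3. Among 15 regulators of mitochondrial biogenesis, all tested, medians ran from -0.0514 to 0.0121, with Gabpb1, a subunit of GABP, at -0.105 (SE 0.08) and Twnk, the mitochondrial DNA helicase, at 0.15 (SE 0.12). The 16 genes of the tricarboxylic acid cycle and pyruvate dehydrogenase had medians between -0.0262 and 0.0484. In that list Idh3a, a subunit of isocitrate dehydrogenase, differed by -0.22 (SE 0.17), with -2.07 in 12 h replicate 3 as its lowest value, and Ogdh by 0.07 (SE 0.10).

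The cell type markers with the smallest unadjusted p for the 4 times averaged were, in astrocytes, Aldoc (0.45, SE 0.14) and Slc1a2 (0.33, SE 0.14), and in neurons Snap25 (-0.12, SE 0.11) and Nefm (-0.08, SE 0.10). They were Hes5 (0.33, SE 0.16) and Fabp7 (0.15, SE 0.15) for radial glia, Mbp (0.24, SE 0.32) and Olig1 (-0.07, SE 0.11) for the oligodendrocyte lineage, and Tyrobp (0.20, SE 0.19) and Csf1r (0.11, SE 0.12) for microglia. For endothelium they were Cdh5 (0.23, SE 0.18) and Kdr (-0.19, SE 0.23), and for fibroblasts and pericytes Lum (-0.38, SE 0.30) and Acta2 (0.07, SE 0.12). None of these markers passed the limma test after adjustment. For the same average, higher means were seen for 6 of 11 neuron, 7 of 8 astrocyte, 3 of 6 radial glia, 5 of 8 oligodendrocyte lineage, 5 of 6 microglial, 2 of 3 endothelial and 1 of 7 fibroblast and pericyte markers tested, with medians between -0.0865 and 0.0917.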

How the data were processed

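RNA of 15 samples was hybridised to 16 one-colour (Cy3) arrays on 2 slides, 200 ng per array per the labels. The scanner files deposited by the authors give the intensity of each spot, background-subtracted and not scaled between arrays; the scanner software was Feature Extraction 11.5.1.1 with protocol GE1_1105_Oct12, per the file headers; the headers name rn4, and no coordinates were taken from it. The series values deposited by the authors are a score per array that tracked the log of the same signal; for 24 h replicates 1 and 3 the score of each was that of the other's array (correlation 0.991 with its own), and these scores served only as an alternative.

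Of 62976 spots per array 4259 were controls and were left out, as were outlier flags. Spots of a probe were averaged as log2 values minus the array's 75th percentile. A probe counted as well above background where most of its usable spots did, and was kept where it did so on every array of at least 1 group; where probes shared a gene, that of highest mean was tested. Matching without versions to RefSeq genes (GRCr8) named 18758 of 30367 probes; 18173 features, 11093 of them named genes, were tested. limma 3.58.1 in R 4.3.3 fitted all 15 samples without a covariate (two-sided; residual degrees of freedom 10, prior 3.55), with Benjamini-Hochberg adjustment over all features and a threshold of 0.05. The script was tested on simulated data. The number of arrays limits the precision.

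The members, the other lists and the rule for named genes (in each comparison the 3 genes of smallest p in either direction; core subunits by role; genes without a probe or with disagreeing probes; the largest and smallest spreads; 2 genes of each other list) were chosen with earlier results of these data known, so counts and medians of lists are descriptions and not tests. Same-numbered samples of 2 h and untreated deviated together (correlations 0.229, 0.201 and 0.425). An alternative fit therefore took the numbers as pairs from the data, since no label says what they share. The main fit used no pairs. At 6 and 12 h these correlations were positive too, between 0.0257 and 0.2762, and not every one was above 0.1. For 24 h replicate 3 the correlation was -0.4226 with its own number and 0.1978 on average with the others. Whether 24 h replicates 1 and 3 were exchanged was not tested, and they were used as labelled. Alternatives were the background correction, the scaling, the filter, the treatment of several probes, the slide, the replicate number, array weights, the samples in the fit and leaving out each sample. The files hold no mean spot signal, so normexp correction (offset 50) used the median signal.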

Additional observations from a re-analysis of the deposited data

How the results depend on the processing

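In every alternative run, 0 of the 50 genes passed in limma, with a smallest adjusted p among them of 0.845 at 2 h, 1 at 6 h, 0.542 at 12 h, 0.999 at 24 h 0.854 for the mean of the 4 times and 0.941 among the times. Over all features the counts stayed at 0 in 195 of 197 results; the exceptions were 4 features at 12 h within slide 1 and 1 for the mean of the 4 times with the replicate block when 24 h replicates 1 and 3 were exchanged, none of them among the 50 genes. With the replicate block as labelled, 0 features passed, the smallest adjusted p was 0.95 at 12 h, and the medians (0.052, 0.0245, 0.0558 and 0.0234) are the same by construction, since each number stands once in each group, so they say nothing about stability under the pairing. The median difference of the 50 genes moved by more than the spread between replicates within slide 1 (-0.0631 at 6 h and -0.0796 at 12 h), within slide 2 (0.1659 at 2 h and 0.185 at 6 h) and without 12 h replicate 3 (-0.0318 at 12 h). When each sample was left out in turn, the median ranged from 0.0078 to 0.1106 at 2 h, from -0.045 to 0.0836 at 6 h, from -0.0318 to 0.0903 at 12 h, from -0.0042 to 0.0622 at 24 h and from 0.0099 to 0.0433 for the mean of the 4 times, and 0 features passed. Complex II moved most often, to between -0.1418 and 0.1749 within 1 slide. Normexp correction moved the median of all features at 12 h from 0.0219 to 0.1019, and the median of the 50 genes there was 0.0325. The sign of the median of the 50 genes turned at every time in at least 1 setting, among them array weights (-0.0225 at 12 h) and quantile normalization (-0.0015 at 2 h and -0.0143 at 24 h). The sign of a single gene's difference held in all settings for 13 of 50 genes at 2 h, 5 at 6 h, 16 at 12 h and 11 at 24 h. The setting with the most turns was within slide 1 (87 of 250 values), ahead of slide 2 (61), quantile normalization (53) and array weights (53). No difference that turned had passed the test. With 3 samples a group, a change smaller than the half-width of the unadjusted 95% interval, 0.281 at the median gene for a single time, could not be told from none. A change had to be larger still to pass after adjustment over all features. Ndufa10 at 2 h, with 0.46 and an unadjusted p of 0.0335 in limma, did not pass.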
